A study of Mus musculus with 30 samples.

Results

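Glycogen synthesis and breakdown were followed through 9 genes: Pygm, Phka1, Phkb, Phkg1, Gys1, Gys2, Gbe1, Ppp1r3a and Ppp1r3c. They were taken by symbol from the 36103 genes of the count table, and all 9 were found once. The series compared male Mtm1-/y mice, which lack a functional Mtm1 gene on the X chromosome, with their WT littermates at 5 weeks, all on a pure 129Pas background. Mtm1 encodes myotubularin, a lipid phosphatase whose loss causes X-linked centronuclear myopathy. Polyadenylated RNA of whole gastrocnemius, diaphragm, heart and liver was sequenced in 30 libraries. There were 4 libraries of each genotype for gastrocnemius and heart. The diaphragm had 3 from Mtm1-/y mice beside 4 from WT mice, and the liver 4 beside 3. The knock-out is constitutive, so every cell type of a sample carries it.

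Muscle and liver store glucose as glycogen, a branched polymer. Glycogen synthase lengthens the chains (Gys1 encodes the muscle form and Gys2 the liver form), and the branching enzyme Gbe1 adds the branch points. Glycogen phosphorylase removes glucose units from the chain ends, and Pygm is its muscle form. Phosphorylase is switched on by phosphorylase kinase, whose regulatory alpha and beta subunits are encoded by Phka1 (the muscle form) and Phkb, and whose catalytic gamma subunit in muscle is encoded by Phkg1. Ppp1r3a and Ppp1r3c encode subunits that bring protein phosphatase 1 to the glycogen particle, where it turns synthase on and phosphorylase off. Skeletal muscle uses its glycogen as fuel for contraction, while liver releases glucose to the blood.

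Totals ran from 24873817 to 44289343 counts a library, and the members reached 361936 of them (Pygm in WT gastrocnemius). Levels are normalised read counts as CPM (read counts scaled to a fixed library size) after TMM scaling over all 30 libraries. Mtm1 lay between 15.5 and 27.0 CPM in the WT libraries and between 3.49 and 8.08 CPM in the Mtm1-/y libraries, without overlap in any tissue. Its log2 fold change was -2.07 ± 0.10 in the gastrocnemius and -1.60 ± 0.23 (SE) in the liver, where edgeR gave an adjusted p of 0.365.

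Coordinates are those of the mm10 build in the GENCODE M21 annotation, which lists all 9 as protein-coding. Pygm (19:6384399-6398459) and Ppp1r3c (19:36731731-36736653) share chromosome 19, and Gys2 (6:142422613-142473109) and Ppp1r3a (6:14713977-14755274) share chromosome 6. Phka1 (X:102513975-102644246) is X-linked, as is Mtm1. Phkb lies at 8:85840959-86061376, Phkg1 at 5:129863421-129898549, Gys1 at 7:45434844-45456619 and Gbe1 at 16:70313949-70569716. Exons of Gys1 overlap those of Ruvbl2, and exons of Phkg1 those of Sumf2, both on the opposite strand. The library kit marked strand, but whether the counting used it is not given in the sources used here.

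Promoter sequence is shown for 5 members whose levels differed between the genotypes in the gastrocnemius, as the bases before the RefSeq gene start that lie outside annotated exons (GRCm38.p6, gene strand). Of the 9 members, 8 had an entry, Gys2 being the exception. Capitals mark E-boxes (CANNTG, bound by myogenic factors among others), the MEF2 motif, and GC boxes (GGGCGG), searched on both strands. The stretches are chr19:6384158-6384398 (+) for Pygm, chr5:129879089-129879338 (-) for Phkg1, chr16:70313699-70313948 (+) for Gbe1, chr6:14755275-14755524 (-) for Ppp1r3a and chr19:36736654-36736854 (-) for Ppp1r3c.
Pygm: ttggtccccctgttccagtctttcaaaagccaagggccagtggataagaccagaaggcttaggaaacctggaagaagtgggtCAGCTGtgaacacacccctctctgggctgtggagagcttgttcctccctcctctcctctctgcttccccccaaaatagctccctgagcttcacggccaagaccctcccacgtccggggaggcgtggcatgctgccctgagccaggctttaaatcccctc
Phkg1: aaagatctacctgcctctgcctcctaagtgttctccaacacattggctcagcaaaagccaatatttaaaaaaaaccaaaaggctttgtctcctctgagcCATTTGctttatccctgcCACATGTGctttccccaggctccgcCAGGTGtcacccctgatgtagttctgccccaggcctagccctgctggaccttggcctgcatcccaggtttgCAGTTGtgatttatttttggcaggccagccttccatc
Gbe1: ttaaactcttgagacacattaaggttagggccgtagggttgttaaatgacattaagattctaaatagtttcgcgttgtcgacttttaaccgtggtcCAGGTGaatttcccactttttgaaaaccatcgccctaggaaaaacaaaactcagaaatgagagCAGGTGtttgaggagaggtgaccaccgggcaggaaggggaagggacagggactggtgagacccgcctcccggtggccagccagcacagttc
Ppp1r3a: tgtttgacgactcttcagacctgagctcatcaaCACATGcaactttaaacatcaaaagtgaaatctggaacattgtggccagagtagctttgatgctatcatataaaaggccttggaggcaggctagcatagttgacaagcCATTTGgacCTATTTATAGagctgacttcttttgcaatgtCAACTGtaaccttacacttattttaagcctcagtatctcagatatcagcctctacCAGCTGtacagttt
Ppp1r3c: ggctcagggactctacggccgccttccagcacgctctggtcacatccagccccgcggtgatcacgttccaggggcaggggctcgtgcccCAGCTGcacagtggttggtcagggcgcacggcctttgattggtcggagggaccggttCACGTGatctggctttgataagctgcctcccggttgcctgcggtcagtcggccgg
In the full window of 250 bases, Phkg1 held 5 E-boxes, of which 2 overlap within the run CACATGTG. Ppp1r3a held 4, and Pygm, Phka1, Gbe1 and Ppp1r3c 2 each. An E-box occurs in 66.2% of the 32851 RefSeq promoters searched. The MEF2 motif, present in 2.92% of them, was found in Ppp1r3a alone among the members. GC boxes, present in 32.7%, were found in Phka1, Phkb and Gys1, whose promoters are not printed. The Phkg1 gene model of GENCODE starts further upstream, so the printed stretch lies inside an intron of that longer model. These matches describe the letters only.

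The first question was how the pathway is distributed over the WT tissues. Beside each other on a per-length scale (CPM per kb of exon), Pygm stood far above the rest in WT gastrocnemius, at 3604 ± 292 (SD, n = 4). It was followed by Ppp1r3c at 405 ± 74.8, Phka1 at 184 ± 12.2, Phkg1 at 142 ± 7.56, Gys1 at 131 ± 5.15 and Phkb at 92.1 ± 8.25. Ppp1r3a at 48.8 ± 5.83, Gbe1 at 14.96 ± 0.909 and Gys2 at 0.118 ± 0.0903 closed the order. The neighbours Phkg1 and Gys1 overlapped between libraries, and the Phkg1 value is lowered by its long gene model of 6.51 kb. In WT liver the order was another one, with Ppp1r3c at 80.4 ± 11.1 CPM per kb and Gys2 at 71.9 ± 1.01 (n = 3) at the top, a gap smaller than the SD of Ppp1r3c. Gbe1 followed at 22.1 ± 1.104 and Phkb at 5.70 ± 0.677, while Pygm (1.15 ± 0.0618) and Gys1 (1.08 ± 0.220) did not differ beyond their spread.

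**Figure D1:**
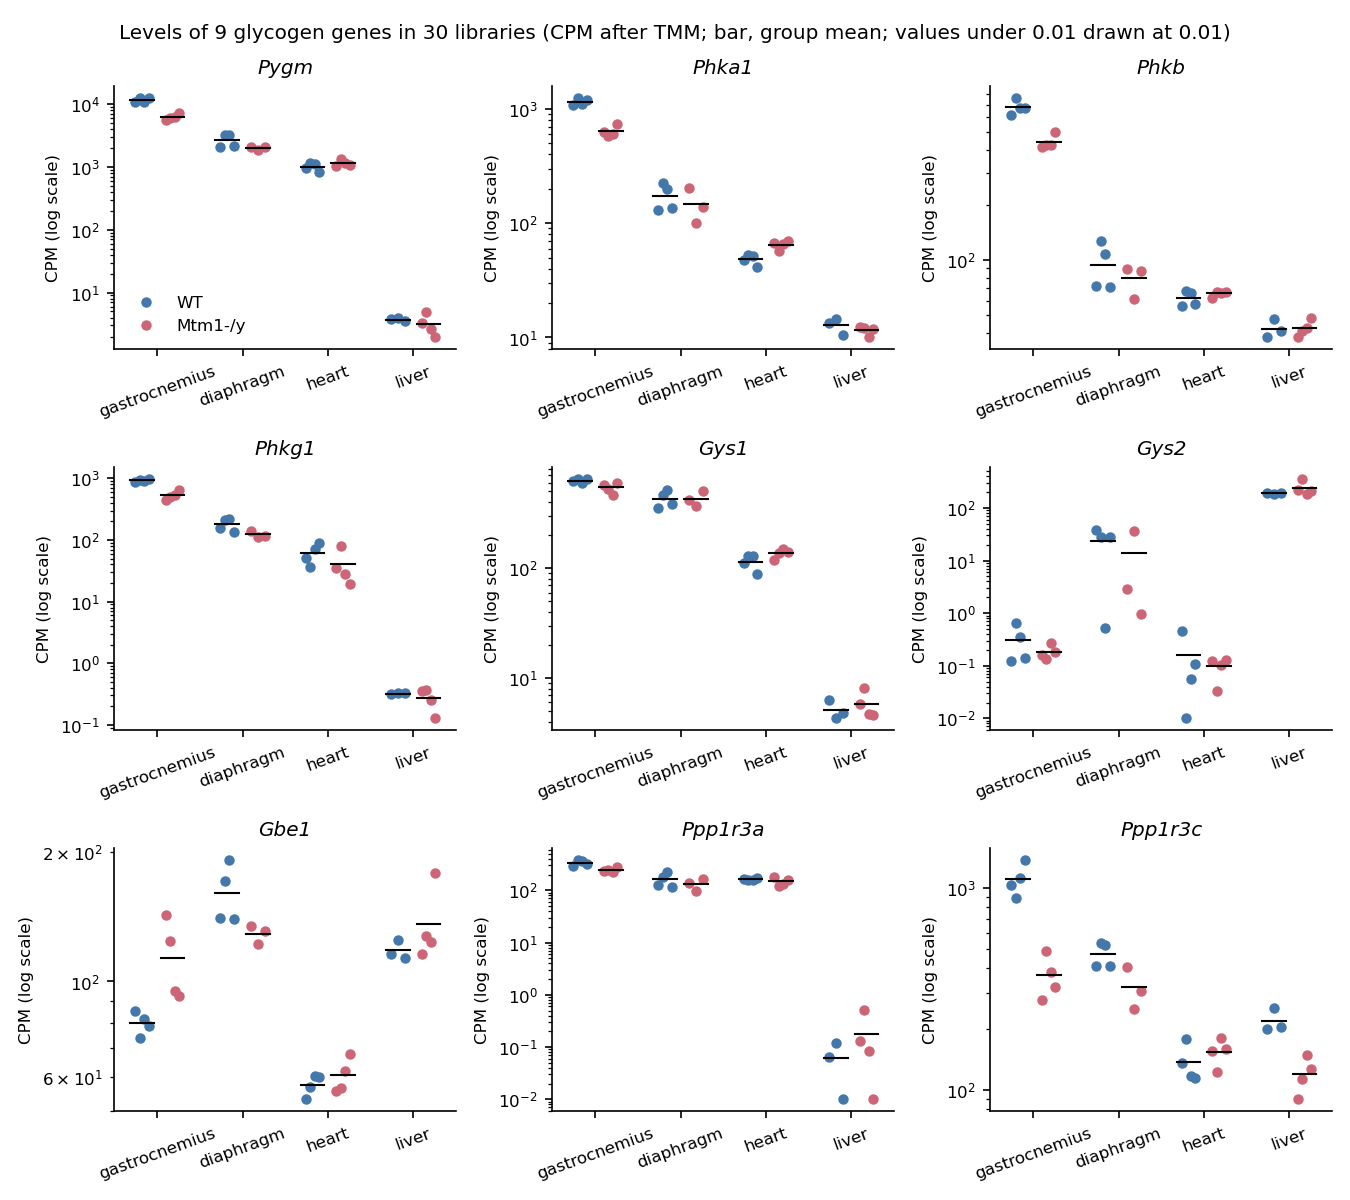
Levels of the 9 genes in every library, in CPM after TMM on a log axis, for WT (blue) and Mtm1-/y (red) in each tissue; short bars are group means and a value of 0 is drawn at 0.01. In the gastrocnemius the 4 Mtm1-/y libraries lie below the 4 WT libraries for Pygm, Phka1, Phkb, Phkg1, Ppp1r3a and Ppp1r3c and above them for Gbe1, and in the diaphragm Gys2 spreads from 0.531 to 37.3 CPM.

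Among the breakdown genes, Pygm, Phka1, Phkb and Phkg1 each fell in level from gastrocnemius to diaphragm to heart to liver, and so did Gys1 among the synthesis genes. All 6 comparisons between WT tissues passed the test for each of these 5 genes. Pygm averaged 11600 ± 938 CPM in WT gastrocnemius, 2670 ± 653 in diaphragm, 1012 ± 151 in heart (n = 4 each) and 3.71 ± 0.199 in liver (n = 3). The log2 difference between gastrocnemius and diaphragm was 2.17 ± 0.19 for Pygm (SE, edgeR adjusted p = 1.65e-06) and 2.80 ± 0.18 for Phka1 (adjusted p = 1.28e-07). For Gys1 the same step was smaller, 627 ± 24.7 against 427 ± 73.4 CPM, a log2 difference of 0.60 ± 0.15 (adjusted p = 0.00437). With library totals in place of TMM that step was 0.08 and no longer passed (adjusted p = 0.615). Phkb had the smallest spread over tissues of the kinase genes, from 683 CPM in gastrocnemius to 42.3 CPM in liver. Its heart and liver levels, 62.0 ± 6.0 and 42.3 ± 5.02 CPM, differed by 0.56 ± 0.19 on the log2 scale (adjusted p = 0.0136, and 0.0601 without WT liver replicate 1).

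Gbe1, Ppp1r3a, Ppp1r3c and Gys2 kept other orders. Gbe1 was highest in diaphragm (161 ± 25.3 CPM), then liver (118 ± 5.91), gastrocnemius (80.1 ± 4.86) and heart (57.6 ± 3.29), and each step passed the test. The step from gastrocnemius to heart, 0.51 on the log2 scale (adjusted p = 0.000449), became -0.08 with library totals, under which the median of all genes moved from -0.08 to -0.67. Ppp1r3a averaged 340 ± 40.6 CPM in gastrocnemius, 162 ± 52.6 in diaphragm and 161 ± 9.31 in heart, and the last 2 did not differ beyond their spread (log2 difference 0.00 ± 0.23, adjusted p = 0.991). In WT liver Ppp1r3a had 0 to 3 counts a library. Ppp1r3c was highest in gastrocnemius (1104 ± 204 CPM), followed by diaphragm (468 ± 68.2), liver (219 ± 30.2) and heart (136 ± 29.1). Its difference between heart and liver, -0.68 ± 0.19 on the log2 scale (adjusted p = 0.00399), shrank to -0.13 with library totals (adjusted p = 0.49). Of the 9 members, 9 passed between gastrocnemius and diaphragm (54.4% of 17725 genes did), 8 between gastrocnemius and heart (61.3%), 9 between gastrocnemius and liver (79.5%), 8 between diaphragm and heart (51.7%), 9 between diaphragm and liver (76.1%) and 9 between heart and liver (76.4%). The counts with the diaphragm include Gys2, whose level there moved with that of albumin, a hepatocyte product, as given below.

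The muscle forms made up nearly all of their families in the gastrocnemius. Per length, Pygm was 99.9% ± 0.0137 of the phosphorylase total (Pygm, Pygb and Pygl) in WT gastrocnemius, 96.7% ± 2.04 in diaphragm, 66.5% ± 2.37 in heart and 0.953% ± 0.0968 in liver. Phka1 was 99.0% ± 0.120 of the alpha subunit total (Phka1 and Phka2) in WT gastrocnemius and 65.8% ± 3.23 in heart. Phkg1 was 98.0% ± 0.155 of the gamma total (Phkg1 and Phkg2) in gastrocnemius, 67.6% ± 7.84 in heart and 0.531% ± 0.0161 in liver. In the Mtm1-/y gastrocnemius these shares were 99.8% ± 0.0220 for Pygm, 97.9% ± 0.279 for Phka1 and 95.8% ± 0.347 for Phkg1. Each of the 3 lay below every WT gastrocnemius library, by at most a few percentage points.

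Gys2, the liver synthase, needed a separate look in the diaphragm. It averaged 191 ± 2.68 CPM in WT liver and was at 0.123 to 0.636 CPM in WT gastrocnemius and at 0 to 0.467 CPM in WT heart, which is 0 to 16 counts a library in these muscles. In the WT diaphragm it was at 37.3, 28.5, 0.531 and 28.3 CPM in replicates 1 to 4, and in the Mtm1-/y diaphragm at 2.85, 37.2 and 0.944 CPM in replicates 1, 2 and 4. The libraries split into high and low ones within both genotypes. Albumin, the main product of hepatocytes, split the same libraries: in CPM of the library total it stood at 26740, 16860, 283.6 and 19830 in WT and at 1816, 31880 and 582.7 in Mtm1-/y. All 13 hepatocyte markers exceeded 1 CPM in both diaphragm groups, with sums from 577 to 41620 CPM in WT and from 927 to 52810 CPM in Mtm1-/y. Gys2 amounted to 1.30 to 2.11 counts for every 1000 Alb counts in the 7 diaphragm libraries (median 1.82) and to 1.18 to 2.53 in the 7 liver libraries (median 1.64). The Gys2 level of the diaphragm thus moved with the hepatocyte signal. Its log2 difference between WT gastrocnemius and WT diaphragm, -6.24 ± 1.02 (adjusted p = 0.000167), ran from -6.79 to -5.95 over omissions of single WT libraries. Of the other members, Gbe1 and Ppp1r3c had WT liver levels of 118 and 219 CPM and Pygm one of 3.71 CPM. The part of hepatocyte RNA in their WT diaphragm levels was not tested. For their genotype effects in the diaphragm it was tested only through the covariate given further on.

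**Figure D2:**
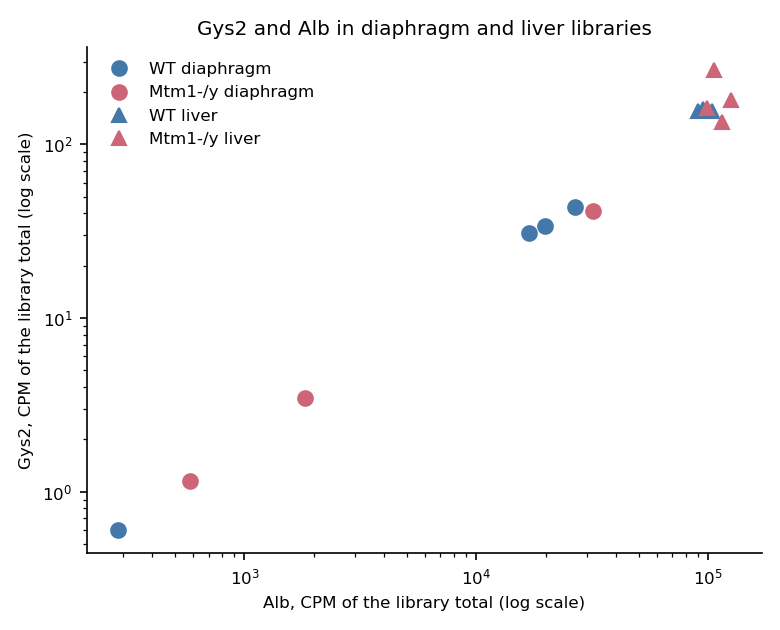
Gys2 against Alb, both in CPM of the library total on log axes, for the 7 diaphragm (circles) and 7 liver (triangles) libraries, WT in blue and Mtm1-/y in red. Diaphragm libraries with Alb at 283.6 to 31880 lie on a line with the liver libraries at 90620 to 125600.

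The main comparison asked how loss of Mtm1 changed these genes in the gastrocnemius, where 8 members were tested and Gys2 was too low. There 6 fell and 1 rose, and the same 6 and 1 had no overlap between the genotypes (15% of genes were lower and 15.6% higher in that way). All 4 breakdown genes fell, as did both phosphatase-targeting genes, the branching enzyme rose, and Gys1 did not pass. In all, 14.9% of the 15456 genes tested fell and 14.1% rose, so changes were common in this muscle. The median log2 fold change was -0.73 over the 8 members tested and 0.02 over all genes.

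Pygm had 10900, 12370, 10680 and 12450 CPM in the WT gastrocnemius libraries and 5613, 5967, 6106 and 7259 CPM in the Mtm1-/y libraries. The groups did not overlap, and the log2 fold change was -0.91 ± 0.11 (SE, edgeR adjusted p = 0.000408). The 3 kinase subunit genes among the members fell as well. Phka1, the alpha subunit, had 1083, 1244, 1096 and 1185 CPM in WT and 633, 577, 603 and 734 CPM in Mtm1-/y, a log2 fold change of -0.88 ± 0.09 (adjusted p = 0.000243). Phkg1, the catalytic gamma subunit, had 875, 954, 891 and 977 CPM in WT and 445, 501, 547 and 638 CPM in Mtm1-/y, a log2 fold change of -0.81 ± 0.11 (adjusted p = 0.000683). Phkb, the beta subunit, had 618, 765, 672 and 676 CPM in WT and 415, 423, 425 and 500 CPM in Mtm1-/y, a log2 fold change of -0.65 ± 0.09 (adjusted p = 0.000902). None of the 4 breakdown genes overlapped between the genotypes.

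The phosphatase-targeting genes held the largest fall of the members. Ppp1r3c had 1032, 891, 1118 and 1376 CPM in WT gastrocnemius and 278, 485, 385 and 325 CPM in Mtm1-/y. Its highest Mtm1-/y library stayed well under its lowest WT library, and the log2 fold change was -1.60 ± 0.19 (adjusted p = 0.000415). Ppp1r3a, the main glycogen-targeting subunit of striated muscle, had 290.3, 379.9, 364.7 and 323.9 CPM in WT and 237, 243, 223 and 279 CPM in Mtm1-/y. Those ranges came within a few percent of each other, with a log2 fold change of -0.49 ± 0.10 (adjusted p = 0.00700). In a fit of all 30 libraries together, Ppp1r3a (-0.50, adjusted p = 0.309) and Phkg1 (-0.83, adjusted p = 0.0683) did not pass.

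Of the synthesis genes among the members, 2 were tested, and with TMM their values had opposite signs. Gbe1 had 85.6, 74.1, 81.9 and 78.7 CPM in WT gastrocnemius and 142.8, 124.1, 95.0 and 92.7 CPM in Mtm1-/y. Every Mtm1-/y library was above every WT library, and the log2 fold change was 0.49 ± 0.13 (adjusted p = 0.0218). It missed the threshold without WT replicate 2 (adjusted p = 0.0680), without WT replicate 4 (0.0566) or without Mtm1-/y replicate 2 (0.0544). Gys1, the muscle synthase, had 621, 643, 594 and 649 CPM in WT and 575, 529, 467 and 599.5 CPM in Mtm1-/y, so that Mtm1-/y replicate 4 lay just above WT replicate 3. Its log2 fold change of -0.23 ± 0.08 did not pass in edgeR (adjusted p = 0.0673) and passed in DESeq2 (adjusted p = 0.0457), which called 25.7% of genes.

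**Figure D3:**
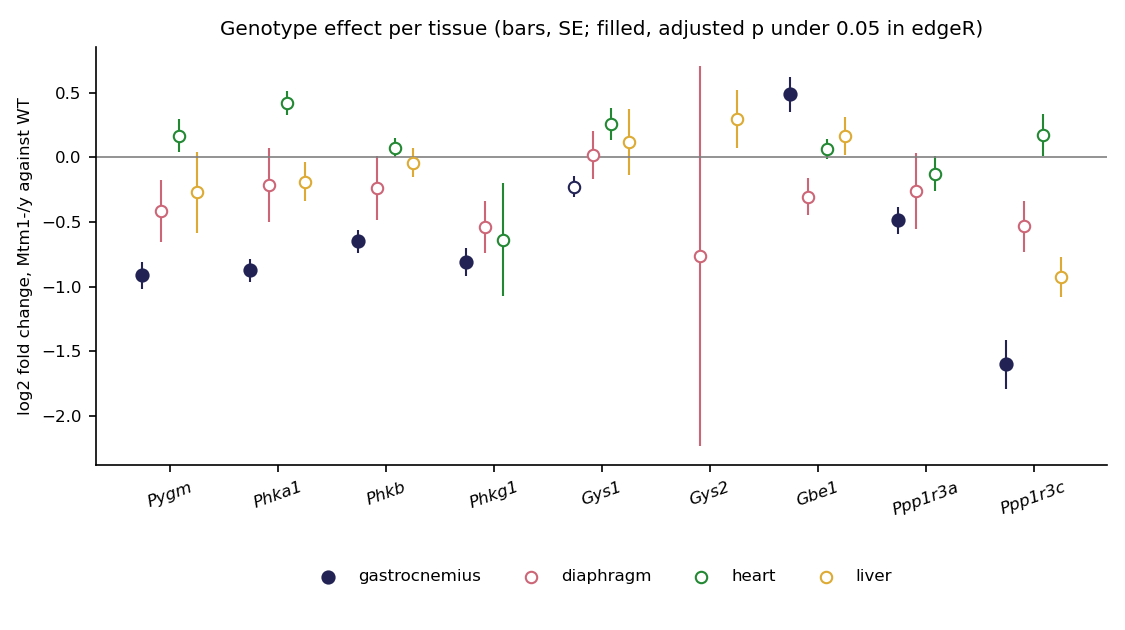
Log2 fold change of each member in Mtm1-/y against WT (edgeR), by tissue, with bars of 1 SE; filled points had an adjusted p under 0.05, and genes too low to test in a tissue have no point. Filled points occur in the gastrocnemius, 6 below 0 and Gbe1 above, with Ppp1r3c at -1.60; with library totals in place of TMM the gastrocnemius values move up and Gys1 crosses 0.

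Scaling mattered in the gastrocnemius. With library totals in place of TMM the median of all genes moved from 0.02 to 0.35, and the calls over all genes from 2173 higher and 2306 lower to 7647 higher and 647 lower. Pygm stayed lower at -0.58, Phka1 at -0.54, Phkg1 at -0.48, Phkb at -0.31 and Ppp1r3c at -1.26, and all 5 passed. Ppp1r3a at -0.15 lost its call (adjusted p = 0.186), Gys1 turned to 0.11 without passing, and Gbe1 rose by 0.82. That gave 5 members lower and 1 higher, where 4.19% of all genes tested were called lower and 49.5% higher.

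Some sums of marker lists moved with genotype too. The 9 skeletal muscle fibre markers summed to 244400 to 289700 CPM in WT gastrocnemius and to 161100 to 178800 CPM in Mtm1-/y, all 9 being above 1 CPM in both. Most of these genes encode forms typical of fast fibres, and the slow fibre genes form a list of their own. The 6 macrophage markers summed to 35.3 to 60.7 CPM in WT and to 87.8 to 108 CPM in Mtm1-/y. The 8 genes of the cardiomyocyte list, of which 4 in WT and 5 in Mtm1-/y exceeded 1 CPM, summed to 6751 to 7905 CPM in WT and to 667 to 2544 CPM in Mtm1-/y. In a skeletal muscle that sum is no measure of cardiomyocytes. The hepatocyte, white adipocyte, slow fibre and fibroblast sums overlapped between the genotypes. In whole muscle, fewer or smaller fibres, a change of fibre type and less of an RNA per fibre cannot be told apart. Per 1000 counts of the fibre markers of the same library, Pygm stood at 42.7 to 43.7 in WT and 34.8 to 40.6 in Mtm1-/y, and Ppp1r3c at 3.11 to 4.75 and 1.73 to 2.94, both lower without overlap, as 0.867% of genes tested were. On that scale Phka1, Phkb, Phkg1 and Ppp1r3a overlapped, with mean log2 differences of -0.17, 0.05, -0.12 and 0.22. Gbe1 (0.259 to 0.335 in WT, 0.519 to 0.887 in Mtm1-/y) and Gys1 (2.24 to 2.43 and 2.86 to 3.57) were both higher without overlap, as 71.4% of genes tested were. The part of fibre content in the results was not tested beyond these ratios, and that of fibre type was not tested.

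In the diaphragm no member passed the test in edgeR, where 0.0119% of 16796 genes did, and none in DESeq2, which called 2.37%. At an unadjusted p under 0.05 there were 2, Phkg1 and Ppp1r3c, beside 10.8% of all genes. Pygm had 2086, 3220, 3251 and 2123 CPM in WT and 2098, 1819 and 2041 CPM in Mtm1-/y, a log2 fold change of -0.42 ± 0.24 (adjusted p = 0.610). The WT libraries fell into a high and a low pair, and the low pair overlapped with Mtm1-/y. Phkg1 had 155, 208, 223 and 136 CPM in WT against 140.1, 113 and 117 CPM, a log2 fold change of -0.54 ± 0.20 (adjusted p = 0.406). Phka1 (-0.21 ± 0.29) and Phkb (-0.24 ± 0.25) overlapped, with their lowest value in Mtm1-/y replicate 2, the library with the highest Alb. Their highest values, 223 and 127 CPM, were in WT replicate 2, which also had high Alb (16860 CPM of the library total). A link of either gene to Alb was not tested.

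In the Mtm1-/y diaphragm 2 members, Ppp1r3c and Gbe1, were lower without overlap after TMM, against 5.25% of genes tested. In CPM of the library total both overlapped. There Mtm1-/y replicate 1 had 496.3 for Ppp1r3c and 164.1 for Gbe1, above WT replicate 1 at 478.0 and 163.3. Ppp1r3c had 411, 531, 523 and 408.0 CPM in WT and 407.6, 249.7 and 308 CPM in Mtm1-/y, so that the groups were nearly touching, with a log2 fold change of -0.53 ± 0.20 (adjusted p = 0.408). Gbe1 had 140.4, 171, 192 and 139.6 CPM in WT and 135, 122 and 131 CPM in Mtm1-/y, a log2 fold change of -0.30 ± 0.15 (adjusted p = 0.526). Gys1 lay at 352, 462, 513 and 383 CPM in WT and at 420, 368 and 500.5 CPM in Mtm1-/y, a log2 fold change of 0.02 ± 0.19. Ppp1r3a overlapped as well (-0.26 ± 0.29), and Gys2 gave -0.76 ± 1.47, which became -3.65 without Mtm1-/y replicate 2, -1.18 without WT replicate 3, -0.45 without WT replicate 1, -0.27 without Mtm1-/y replicate 1 and -0.22 without Mtm1-/y replicate 4. With a hepatocyte score as a covariate, or with the 1113 liver-enriched genes left out, no member passed either. The fibroblast markers summed to 1894 to 3975 CPM in WT diaphragm and to 4136 to 8403 CPM in Mtm1-/y, and their part in these values was not tested. Relative to the fibre markers of the same library, Pygm (32.4 to 35.1 per 1000 in WT, 26.2 to 28.4 in Mtm1-/y), Phkg1 (2.20 to 2.41, 1.51 to 1.76) and Ppp1r3c (5.45 to 6.61, 3.90 to 5.09) were lower without overlap, as 2.45% of genes tested were. Phka1, Phkb, Gys1, Gbe1 and Ppp1r3a overlapped, with mean log2 differences from -0.24 (Gbe1) to 0.07 (Gys1).

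In the heart, no member passed in edgeR (0.00656% of 15238 genes did), and 1 had an unadjusted p under 0.05, as 8.88% of genes did. That gene was Phka1, with 47.7, 52.7, 51.2 and 41.5 CPM in WT and 67.1, 56.8, 65.9 and 69.7 CPM in Mtm1-/y. It was higher without overlap, as 1.98% of genes tested were, at a log2 fold change of 0.42 ± 0.09. The adjusted p was 0.465 in edgeR and 0.0260 in DESeq2, which called 0.453% of genes. The catalytic subunit Phkg1 varied widely, at 50.1, 36.9, 71.5 and 90.9 CPM in WT and 34.6, 79.8, 27.9 and 19.3 CPM in Mtm1-/y, a log2 fold change of -0.64 ± 0.44 (adjusted p = 0.585). Without Mtm1-/y replicate 2 it was -1.20, without WT replicate 4 it was -0.39 and without Mtm1-/y replicate 4 it was -0.40. Pygm (0.17 ± 0.13), Phkb (0.07 ± 0.07), Gys1 (0.26 ± 0.12), Gbe1 (0.06 ± 0.08), Ppp1r3a (-0.13 ± 0.13) and Ppp1r3c (0.17 ± 0.16) overlapped between the genotypes. Gys2 was too low to test.

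In the liver, no member passed in edgeR, and neither did any of the 14305 genes tested (0.0%), although 606 (4.24%) had an unadjusted p under 0.05, Ppp1r3c among them. Mtm1 itself did not pass there. Ppp1r3c, the targeting subunit that is also abundant in liver, had 199.6, 254 and 204 CPM in WT and 89.5, 113, 148 and 126 CPM in Mtm1-/y. It was lower without overlap, as 2.61% of genes tested were, at a log2 fold change of -0.93 ± 0.16. Its adjusted p was 0.505 in edgeR and 0.000542 in DESeq2, which called 0.163% of genes. Gys2, the liver synthase, had 192, 188 and 193 CPM in WT and 215, 355, 182 and 212 CPM in Mtm1-/y, a log2 fold change of 0.30 ± 0.22 (adjusted p = 0.969). Mtm1-/y replicate 2 stood above the others, and without it the log2 fold change was 0.04. Gbe1 had 116, 125 and 114 CPM in WT and 116, 127, 123 and 179 CPM in Mtm1-/y, a log2 fold change of 0.16 ± 0.15. Pygm (-0.27 ± 0.31), Phka1 (-0.19 ± 0.15), Phkb (-0.04 ± 0.11) and Gys1 (0.12 ± 0.26) overlapped, and Phkg1 and Ppp1r3a were too low to test.

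Whether the genotype effect itself differed between tissues was tested as a contrast in a joint fit of both. Between heart and gastrocnemius 5 of 8 members differed, all 5 higher in the heart, as 9.94% of 16627 genes were. The difference of log2 fold changes was 1.79 ± 0.27 for Ppp1r3c (edgeR adjusted p = 0.000652), 1.31 ± 0.14 for Phka1 (adjusted p = 5.4e-05), 1.1 ± 0.18 for Pygm (adjusted p = 0.00101) and 0.74 ± 0.12 for Phkb (adjusted p = 0.00120). For Gys1 it was 0.50 ± 0.16 (adjusted p = 0.0386), and 0.10 with library totals (adjusted p = 0.559). The Gys1 call was also lost on leaving out any of 10 single libraries. The value of Gbe1, -0.41 ± 0.17, did not pass (adjusted p = 0.0966). It was -0.82 and passed with library totals (adjusted p = 0.00249), and passed at -0.50 without Mtm1-/y gastrocnemius replicate 3 (adjusted p = 0.0485) or 4 (adjusted p = 0.0413). Phkg1 (0.19 ± 0.48) and Ppp1r3a (0.38 ± 0.18) did not pass.

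Between liver and gastrocnemius the effect differed for Phka1 by 0.71 ± 0.18 (adjusted p = 0.0338) and for Phkb by 0.64 ± 0.15 (adjusted p = 0.0245), beside 3.63% of 17179 genes with a higher value. Library totals gave 0.31 and 0.23 for these, with adjusted p of 0.251 and 0.270. Leaving out 1 library ended the Phka1 call in 9 cases and the Phkb call in 4. No member differed between gastrocnemius and diaphragm in edgeR (0.28% of 17509 genes did), nor between heart and diaphragm (0.00573% of 17466). Unadjusted p values were under 0.05 for Phka1, Gbe1 and Ppp1r3c in the former, beside 12.8% of genes, and for Pygm, Phka1, Gbe1 and Ppp1r3c in the latter, beside 10.6%. DESeq2 called Gbe1 (0.77, adjusted p = 0.0317) and Ppp1r3c (-1.095, adjusted p = 0.0185) between gastrocnemius and diaphragm, as it did 2.04% of genes.

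Ratios within a library do not depend on the scaling. The ratio of phosphorylase to synthase (Pygm to Gys1, counts per kb) was 27.5 ± 1.28 in WT gastrocnemius and 17.2 ± 2.09 in Mtm1-/y (SD, n = 4 each). No Mtm1-/y library reached the lowest WT library, and the exact permutation test gave p = 0.0286, the smallest that 4 against 4 can give. Adjusted over the 15 ratios compared it was 0.0858. The ratio of branching enzyme to synthase (Gbe1 to Gys1) was 0.115 ± 0.0103 and 0.188 ± 0.0372, higher in Mtm1-/y without overlap, with the same exact p. The ratio of Ppp1r3c to Ppp1r3a was 8.45 ± 2.05 and 3.87 ± 1.06, lower without overlap, again with the same p. Within the kinase, Phka1 to Phkb was 2.00 ± 0.0857 and 1.71 ± 0.0822, lower without overlap, and Phkg1 to Phkb was 1.55 ± 0.103 and 1.37 ± 0.113 (exact p = 0.0857). In the heart Phka1 to Phkb went from 0.923 ± 0.0616 to 1.17 ± 0.119 (exact p = 0.0286, adjusted p = 0.0858). The diaphragm had Pygm to Gys1 at 9.22 ± 0.912 in WT (n = 4) and 6.96 ± 0.768 in Mtm1-/y (n = 3) with an exact p of 0.0571, the smallest possible there. Gbe1 to Gys1 in the diaphragm was 0.337 ± 0.0137 and 0.273 ± 0.0340, with the same exact p. It was lower in Mtm1-/y without overlap, the opposite direction to the gastrocnemius. None of the 15 passed after adjustment. Those of the diaphragm could not have passed, as their smallest possible exact p was 0.0571. The others could pass only if most of them reached 0.0286 together, so the adjusted values decide little.

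**Figure D4:**
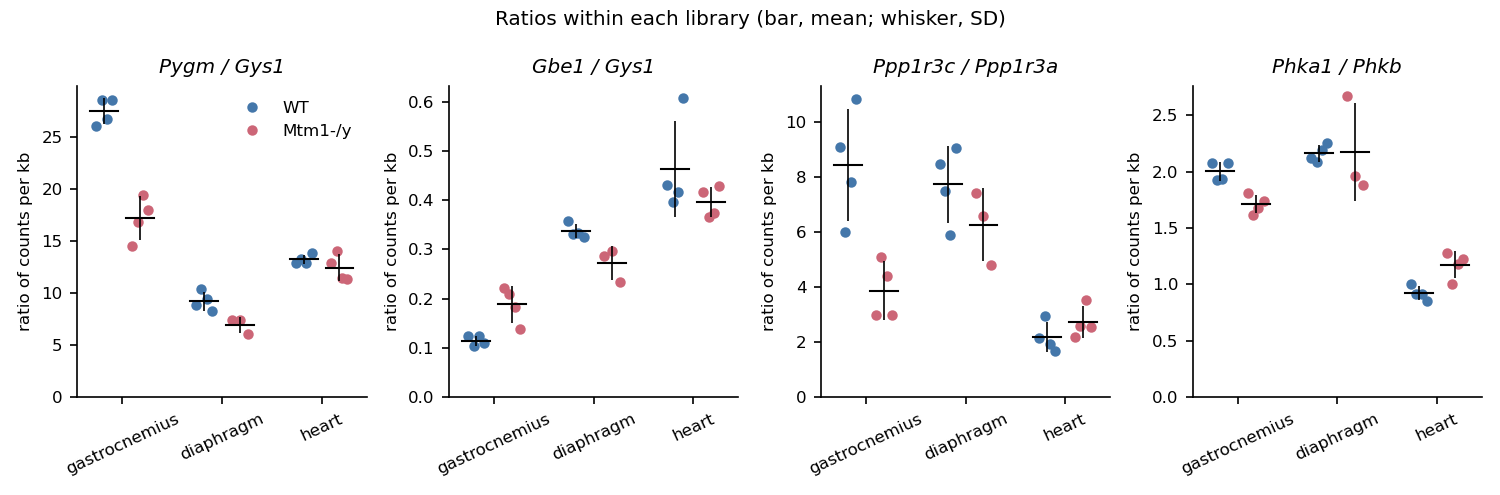
Ratios of counts per kb within each library, with group means (bars) and SD (whiskers), for 3 tissues, WT in blue and Mtm1-/y in red. In the gastrocnemius Pygm to Gys1 falls from a mean of 27.5 to 17.2 and Gbe1 to Gys1 rises from 0.115 to 0.188, without overlap of the libraries.

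The other genes of the pathway came from a list of 31, of which 27 were tested in the gastrocnemius. There 11 fell and 4 rose, beside 14.9% of all genes tested lower and 14.1% higher, with a median log2 fold change of -0.19. With library totals 6 fell and 11 rose, beside 4.19% lower and 49.5% higher. The list did not repeat the split by role seen in the members. With TMM, 3 of its 6 synthesis genes fell and 1 rose, and 1 of its 7 breakdown genes fell and 1 rose. Among the genes of the list with the smallest p, the following 4 fell. Slc37a4, the glucose 6-phosphate transporter of the endoplasmic reticulum, changed by -1.17 ± 0.11 (edgeR adjusted p = 0.000174) and Pgm1, which interconverts glucose 1- and 6-phosphate, by -0.93 ± 0.09 (adjusted p = 0.000201). Epm2a, the glycogen phosphatase laforin, changed by -0.56 ± 0.08 (adjusted p = 0.000994) and Ppp1cb, a catalytic subunit of protein phosphatase 1, by -0.46 ± 0.07 (adjusted p = 0.00115). The liver and brain phosphorylases Pygl (0.65 ± 0.24, adjusted p = 0.0695) and Pygb (0.31 ± 0.12, adjusted p = 0.0771) did not pass in edgeR with TMM, and were chosen after their values were seen. In DESeq2, which called 25.7% of genes, Pygl passed (adjusted p = 0.0478) and Pygb did not (0.0788). With library totals both passed, at 0.984 (edgeR adjusted p = 0.0113) and 0.645 (0.00383). In the diaphragm, the heart and the liver no gene of the list passed in edgeR, of 30, 28 and 29 tested. An unadjusted p under 0.05 was found for 1, 1 and 2 of them, beside 10.8%, 8.88% and 4.24% of all genes. DESeq2 called 1 gene of the list, in the heart (log2 fold change 3.47, adjusted p = 0.0431), where it called 0.453% of genes. That gene was too low to test in edgeR and is not among the 28.

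Over the 30 libraries, log2 CPM was compared between each member and every gene tested. The genes most like Pygm were Pfkm and Eno3, muscle enzymes of glycolysis, and Camk2a (Pearson r = 0.998, 0.997 and 0.996 among 18498 genes). Those of Phka1 included Pld5 and Ube2d1 (r = 0.989 each), and those of Phkb were Ptp4a2, Tpi1 and Gm12224 (0.984 to 0.987). Phkg1 was closest to Podxl2, Plpp7 and Rtn2 (0.993 to 0.994), Gys1 to Scn4a, Best3 and Pknox2 (0.993 to 0.995) and Ppp1r3a to Eef1a2, Txlnb and Ttn (0.996 to 0.997). Gys2 was closest to Mbl1, Ttpa and Cth (0.990 to 0.991). Gbe1, with Ap1g2, D630024D03Rik and Fgfrl1 (0.882 to 0.904), and Ppp1r3c, with BC049352, AC151267.2 and Hikeshi (0.923 to 0.930), had weaker matches. All 30 points share the 4 tissues and the 2 genotypes, and no test was made of these correlations.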

How the data were processed

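RNA-seq libraries of 4 tissues from WT and Mtm1-/y mice were compared. The authors made stranded poly-A libraries, trimmed reads with cutadapt 1.10, aligned them to mm10 with STAR 2.5.3a, counted uniquely aligned, unambiguous reads per gene with HTSeq 0.6.1p1 (union mode), and deposited raw counts for 36103 genes. Tool versions follow the submitters' processing notes.

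The following was done here in R 4.3.3. Per comparison, genes were kept by filterByExpr (count minimum 10), libraries scaled by TMM, and groups compared with the quasi-likelihood test of edgeR 4.0.16. P-values were adjusted after Benjamini and Hochberg across every gene tested, and a gene was called under 0.05. SE is the absolute log2 fold change divided by the square root of F. Tissue comparisons in WT came from 1 fit of the WT libraries, and differences between genotype effects from 1 fit of both tissues, read only for genes tested in each tissue alone. Ratios were compared by two-sided exact permutation tests. DESeq2 1.42.0, its size factors, library totals in place of TMM, no filter, a fold threshold, a fit of all 30 libraries, a hepatocyte covariate, a replicate block and single omissions were alternatives. Library totals and the omission of liver-enriched genes (10-fold higher in liver) were added after the data were seen, as were the limit to genes tested in each tissue alone and the ratios to fibre markers.

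All 9 members are named. Of the other glycogen genes up to 6 with the smallest p per tissue are named, and for each member the 3 genes with the highest correlation. Some genes that this rule names are not reported here. The members and lists were chosen with earlier results of these data known. Per the study's methods the libraries of a group came from separate mice. Whether the tissues came from the same mice is not given in the sources used here. Sequence totals of 24873817 to 44289343 counts set the precision. The scripts were tested on simulated data. Same-numbered libraries did not deviate together in every pair of any tissue, so the numbers were not taken to pair them.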

Additional observations from a re-analysis of the deposited data

Results flagged for a closer look

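In groups of 4 libraries, 1 library stood far from the other 3 for Phkb in 2 of 51 groups tested, where chance gives 2.55. Mtm1-/y gastrocnemius replicate 4 had 499.9 CPM beside 414.8 to 425.3 CPM in the others, still below every WT library. Mtm1-/y heart replicate 1 had 62.2 CPM beside 66.4 to 67.2 CPM, within the range of the WT libraries.

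The genotype effect differed between tissues for 5 members between heart and gastrocnemius: by 1.1 on the log2 scale for Pygm, 1.31 for Phka1, 0.74 for Phkb, 0.50 for Gys1 and 1.79 for Ppp1r3c. Between liver and gastrocnemius it differed by 0.71 for Phka1 and by 0.64 for Phkb. Both comparisons use the same gastrocnemius libraries. Of these differences, those of Pygm, Phka1, Phkb and Ppp1r3c between heart and gastrocnemius kept their call without any 1 library and with library totals, and the other 3 did not.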

How the results depend on the processing

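Over all values and alternatives, 28 reversed their direction, 40 lost and 10 gained a call, and 1654 kept both. In the gastrocnemius a fold threshold of 1 left 1 member called (Ppp1r3c), where 748 of 15456 genes were higher and 276 lower. Single omissions left 6 to 7 members called in that muscle. DESeq2 called 1 heart and 1 liver member, and single omissions 0 in either or in the diaphragm. Between heart and gastrocnemius the fold threshold left 3 members, where 315 of 16627 genes were higher and 971 lower, and single omissions left 4 to 6. Between gastrocnemius and diaphragm library totals called 1 (259 of 17509 genes were higher and 14 lower) and DESeq2 2 (2.04% of genes). Every omission gave 0 there and between heart and diaphragm. Between liver and gastrocnemius the fold threshold and no filter left 0, the replicate block left 1 (Phka1) and omissions 0 to 2. Library totals ended both calls there and called 1 other, Gbe1 at -0.70 (edgeR adjusted p = 0.0372), where 135 of 17179 genes were higher and 3447 lower. Between WT tissues omissions gave 8 to 9.

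The replicate block, which uses numbers that only name the samples (4 of 8 libraries correlated best with their own number in the gastrocnemius, 1 of 6 in the diaphragm, 2 of 8 in the heart and 4 of 6 in the liver), ended the Gys1 call between heart and gastrocnemius (0.52, adjusted p = 0.0544) and the Phkb call between liver and gastrocnemius (0.58, adjusted p = 0.0623), and turned Ppp1r3a between heart and diaphragm to -0.079. It changed no other call of a member.

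Library totals turned Gys1 in the gastrocnemius to 0.11, Phkg1 and Ppp1r3a between heart and gastrocnemius to -0.22 and -0.035, Phkg1, Gys1 and Ppp1r3a between gastrocnemius and diaphragm to 0.009, 0.038 and 0.048, Gys1 between liver and gastrocnemius to -0.039 and Gbe1 between WT gastrocnemius and WT heart to -0.08. Gys1 in the diaphragm was -0.004 with all 30 libraries and -0.051 with the hepatocyte covariate. The direction also changed with single omissions for values near 0: Gys1 in the diaphragm (-0.11 to 0.15), Phkb (-0.113 to 0.046) and Gys1 (-0.09 to 0.30) in the liver, Phkg1 between heart and gastrocnemius (-0.38 to 0.43), Phkg1 (-0.65 to 0.16) and Ppp1r3a (-0.067 to 0.345) between heart and diaphragm, and Ppp1r3a between WT diaphragm and WT heart (-0.14 to 0.18). Except for library totals and omissions, whose construction shows what changed, the cause was not tested. At these depths genes under the count minimum (Gys2 in gastrocnemius and heart, Phkg1 and Ppp1r3a in liver) could not be compared between genotypes.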
